A study of Mus musculus with 12 samples.

Results

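The genes described here are 10 cytokine genes of the macrophage: Il1a, Il1b, Il1rn, Il6, Il10, Il12b, Il15, Il18, Il27 and Tnf. They were listed by name and not by a threshold on a measured value, though with earlier results of these data known. Every probe that the scanner files gave one of these names was taken, which made 13 of the 41174 probes and 10 of the 27962 gene names on the array. The cells were bone-marrow-derived macrophages, precursors from marrow that were differentiated in culture with human rCSF1, the growth factor that makes macrophages of them, at 200 ng/ml. The 6 groups were C57BL6/J (C57BL6 from here on) and Balb/cAnNCrl (Balb/c) cells, each without IL-4 for 18 h (mock), with mouse IL-4 at 10 ng/ml for 4 h, or with IL-4 for 18 h. IL-4 (interleukin-4) is the T helper cytokine that turns macrophages to the alternative state. All mice were 8 to 12 weeks old, each array held RNA from a pool of 2 males and 1 female, and the 2 arrays of a group came from independent experiments with different littermates. No 4 h mock was part of these arrays, so both times of IL-4 were set against the 18 h mock of their strain. The protocol text also describes LPS for cells of the study, while the descriptions of these 12 arrays name IL-4 alone.

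Cytokines of this group carry the alarm of an activated macrophage. Interleukin-1 alpha, interleukin-1 beta and interleukin-18 belong to one family and act on receptors that switch on NF-kB, interleukin-1 beta and interleukin-18 after cleavage by caspase-1, and the product of Il1rn blocks the interleukin-1 receptor. TNF and interleukin-6 drive local inflammation and the acute phase response. The Il12b subunit is shared by interleukin-12 and interleukin-23, the Il27 subunit pairs with Ebi3, and interleukin-15 is presented to lymphocytes on its own receptor chain. Interleukin-10 is the main inhibitory cytokine of the set. Many of these genes are kept low in a resting macrophage and are transcribed through NF-kB, AP-1 and C/EBP factors, while IL-4 acts through STAT6.

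Upstream sequence is shown for the genes on which the results turn, with letters from the RefSeq promoter table (GRCm38.p6), which held 7 of the 10 genes; Il10, Il15 and Il27 were not among them. Each run is the 250 bases before an annotated start, 5′ to 3′ on the gene's strand, and capitals mark matches on either strand to one of 5 short motifs. These were a kappa B type (GGG and TTCC with 3 bases between them), a STAT6 type (TTC and GAA with 4 bases between them), a STAT type (TTC and GAA with 3 bases between them), AP-1 (TGANTCA) and a C/EBP type (TTGCNNAA), which occurred in 4.65%, 5.85%, 7.02%, 6.75% and 9.56% of the 32851 windows of this length in the table. Il6 (chr5:30012864-30013113, plus strand) was above background on Balb/c arrays only. Il18 (chr9:50554450-50554699, plus strand), Il1rn (chr2:24345121-24345370, plus strand, the last of 3 listed starts) and Il1b (chr2:129371140-129371389, minus strand) are those called lower in both strains at 18 h. Tnf (chr17:35202008-35202257, minus strand) had its mock arrays well above those with IL-4 in C57BL6.
Il6: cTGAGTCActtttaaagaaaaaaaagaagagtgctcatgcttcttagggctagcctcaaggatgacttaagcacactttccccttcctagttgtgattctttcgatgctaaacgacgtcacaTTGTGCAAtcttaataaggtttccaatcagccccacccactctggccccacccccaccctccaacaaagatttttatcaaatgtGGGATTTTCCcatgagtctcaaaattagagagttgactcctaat
Il18: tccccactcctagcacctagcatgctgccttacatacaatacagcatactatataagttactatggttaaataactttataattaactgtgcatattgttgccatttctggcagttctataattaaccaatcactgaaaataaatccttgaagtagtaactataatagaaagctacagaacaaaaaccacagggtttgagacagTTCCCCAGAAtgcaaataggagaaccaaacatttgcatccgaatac
Il1rn: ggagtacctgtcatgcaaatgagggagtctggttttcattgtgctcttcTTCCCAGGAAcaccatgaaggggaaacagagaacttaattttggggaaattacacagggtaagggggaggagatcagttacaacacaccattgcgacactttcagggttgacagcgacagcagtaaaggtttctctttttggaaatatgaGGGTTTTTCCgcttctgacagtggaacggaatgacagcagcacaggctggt
Il1b: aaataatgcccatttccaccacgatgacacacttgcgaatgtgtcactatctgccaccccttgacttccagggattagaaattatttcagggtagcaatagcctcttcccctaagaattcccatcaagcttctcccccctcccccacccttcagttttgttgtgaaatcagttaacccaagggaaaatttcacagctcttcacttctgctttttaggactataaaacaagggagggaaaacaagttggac
Tnf: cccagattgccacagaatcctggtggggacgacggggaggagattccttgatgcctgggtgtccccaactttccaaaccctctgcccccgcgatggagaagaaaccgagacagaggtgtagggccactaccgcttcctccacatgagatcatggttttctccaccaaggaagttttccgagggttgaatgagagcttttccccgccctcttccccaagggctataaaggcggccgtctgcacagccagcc

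In the Il6 window the kappa B type match lay 44 to 35 bases before the start, the C/EBP type match 128 to 121 bases and the AP-1 match 249 to 243 bases before it. The Il18 window held a STAT6 type match 46 to 37 bases before the start. The Il1rn window held a STAT6 type match 201 to 192 bases and a kappa B type match 51 to 42 bases before the start; the STAT6 type match also lies in the window of the second listed start. No match to these letters was found in the windows of Il1b, Tnf and Il12b, and AP-1 was the only one found in those of Il1a and the first Il1rn start. No matches overlapped. A match is a run of letters, and binding was not measured.

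The scanner software called 54.9% to 69.7% of the 43379 spots of an array well above background, and replicates correlated at 0.974 to 0.989 over all tested genes. Levels are log2 signal minus the 75th percentile of the array, a level of 0 being the signal of that percentile. All 8 macrophage markers were above background on all 12 arrays, with a summed level of 9.07 to 9.63, against -2.11 to -1.61 for 6 T cell markers. Neutrophil markers, 5 of 7 above background on every array, summed to 3.595 and 3.943 on the C57BL6 mock arrays and to 1.78 and 2.09 on the Balb/c mock arrays. In RNA from whole cultures, fewer cells of a type and less RNA per cell cannot be told apart. The precision is limited by the 2 arrays per group.

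After 18 h of IL-4 the genes of interleukin-1 beta, of its receptor antagonist and of interleukin-18 were lower than in mock in both strains. By limma with Benjamini-Hochberg adjustment over 18427 genes, at an adjusted p below 0.05, 9 of the 10 cytokine genes could be tested, Il1a being the exception. In C57BL6 at 4 h 1 of the 9 was called lower (Il18) and 0 higher, where 3.22% of all genes were called. At 18 h 3 were called lower (Il1b, Il1rn and Il18) and 0 higher in C57BL6, where 4.28% of all genes were called, and the same 3 lower and 0 higher in Balb/c, where 3.73% were. In Balb/c at 4 h limma called 0 of the 9, where 1.43% of all genes were called. At an unadjusted p below 0.05 there were 5 of the 9, against 1864 of all 18427 genes. Their median log2 change was -0.42 and -1.33 at 4 h and 18 h in C57BL6 and -0.48 and -1.32 in Balb/c, and that of all genes between -0.04 and 0.02. Genes enter these medians only where a probe passed the background filter, so the medians describe the tested genes. Fitted on only the 4 arrays compared, the calls in Balb/c at 18 h ended (adjusted p = 0.148 for Il18, 0.181 for Il1rn and 0.195 for Il1b), as did those of Il18 in C57BL6 at 4 h (0.129) and 18 h (0.0534).

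The replicate number was also taken as a block within each strain, a pairing that the labels do not state and that partly went with slide. In C57BL6 4 members were then called lower at 4 h, and 5 lower and 1 higher at 18 h. The 1 higher was Il6, above background on no C57BL6 array, so it is not a measured rise. In Balb/c 3 were called lower and 1 higher at 4 h, and 5 lower and 1 higher at 18 h. The share of all genes called was then 16.6%, 17.4%, 7.29% and 15.1%. Between 18 h and 4 h the block called 2 members in C57BL6 and 3 in Balb/c, where 6.82% and 5.96% of all genes were called. Levels of the 2 groups did not overlap for 6 and 7 of the 9 in C57BL6 at 4 h and 18 h and for 5 and 9 in Balb/c, but neither did they for 49.3%, 51.6%, 31.1% and 42.4% of all genes. For 18 h against 4 h the count was 6 in C57BL6 and 4 in Balb/c (49.6% and 35.2% of all genes), and between the strains in mock it was 6 (47.9%). Absence of overlap between 2 and 2 arrays therefore says little of itself. The blocked values are given beside each gene where they alter the call.

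Summed neutrophil, B cell and macrophage markers had lower values at 18 h than in mock on every array of the same strain. The sums of the other cell types did not fall in both strains. NK cell and stromal sums were lower at 18 h in C57BL6 but higher in Balb/c. The mast cell and basophil sum was higher at 18 h in C57BL6 and overlapped with mock in Balb/c. T cell, dendritic cell and erythroid sums overlapped with mock in both strains. The 7 neutrophil markers summed to 2.999 and 3.579 on the C57BL6 18 h arrays, below both mock arrays, and to 1.04 and 1.61 on the Balb/c 18 h arrays, also below mock. The 4 B cell markers, 3 of them above background on every array, summed to 1.095 and 1.627 in C57BL6 mock and 0.016 and 0.638 at 18 h, and to 0.053 and 0.711 in Balb/c mock and -0.100 and 0.035 at 18 h. The summed macrophage markers were 9.31 and 9.51 in C57BL6 mock and 9.07 and 9.17 at 18 h, and 9.59 and 9.63 in Balb/c mock and 9.12 and 9.30 at 18 h. Signals were added on the linear scale, so the brightest genes weigh most. S100a9 reached 3.59 log2, and the other neutrophil markers at most 0.16. Cd79b reached 1.54 log2, and the other B cell markers at most -1.89. Over the 12 arrays Cd14 ran from 2.44 to 7.00 and Fcgr1 from 4.61 to 7.12, but Adgre1 from 7.06 to 7.43 and Lyz2 from 7.53 to 7.97. A lower sum therefore does not mean that each marker was lower. These sums were not tested, and their part in the falls of Il1b, Il1rn and Il18 was not tested.

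**Figure D1:**
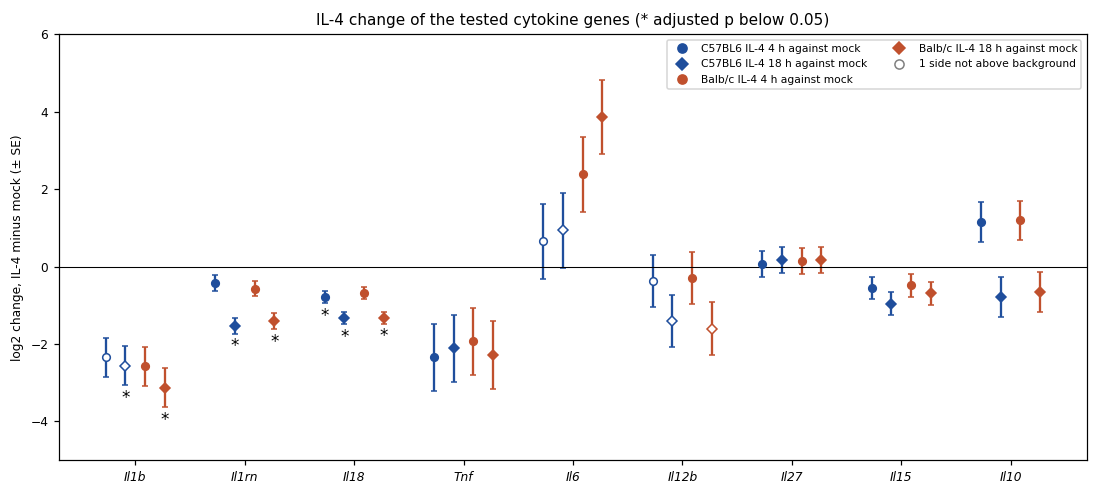
Fitted log2 change of the 9 tested cytokine genes after IL-4 against the mock of the same strain (y axis, log2, bars ± SE from limma), with C57BL6 in blue, Balb/c in red, circles for 4 h and diamonds for 18 h. Open symbols have at least 1 side below background on both arrays; asterisks mark the 7 calls, all of them below 0, while Il6 in Balb/c lies above 0 without a call.

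Il1b, the gene of interleukin-1 beta, fell in both strains at 18 h, in C57BL6 to below the detection limit. In C57BL6 its processed signal was 73.8 and 75.1 scanner units on the mock arrays, 19.3 and 10.2 at 4 h and 11.2 and 12.0 at 18 h. In Balb/c it was 1060 and 428 in mock, 131 and 116 at 4 h and 55.1 and 106 at 18 h. Within each strain both mock arrays stood above all 4 arrays with IL-4, while the scaled levels at 4 h and 18 h overlapped.

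The Il1b fall at 18 h in Balb/c was -3.13 ± 0.51 log2 (SE, limma adjusted p = 0.0139), 8.76-fold. Without Balb/c mock replicate 1 it was -2.39 (adjusted p = 0.0571) and without Balb/c 18 h replicate 1 -2.77 (adjusted p = 0.098). The call held with slide as a block (0.0369) and the changes within replicates 1 and 2 were -4.23 and -2.03. In C57BL6 the probe was above background on both mock arrays and on no array with IL-4, so that the change is a bound. At 18 h it was at least 4.25-fold lower (limma adjusted p = 0.0304), the bright mean set against the lowest signal well above background on each dim array. That call was lost on removal of any single one of the 4 arrays compared (adjusted p = 0.125 to 0.174), without the background filter (0.0569), with slide as a block (0.0795), and with normexp background correction (-0.76 log2, 0.326) or the authors' deposited ratios (-1.28 log2, 0.237). At 4 h Il1b did not pass the test in either strain, at -2.57 ± 0.51 in Balb/c (adjusted p = 0.0593) and at least 4.16-fold lower in C57BL6 (adjusted p = 0.051), and with the replicate block both passed (adjusted p = 0.0425 and 0.033).

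Il1a, the gene of interleukin-1 alpha, gave no level. Its 2 probes were not well above background on any of the 12 arrays, with signals of 2.83 to 17.2 scanner units, and no change was tested.

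Il1rn, the gene of the receptor antagonist, stood at nearly one level on all 4 mock arrays and fell at 18 h in both strains. In C57BL6 its level was 0.58 and 0.59 log2 in mock, 0.23 and 0.10 at 4 h and -0.87 and -1.04 at 18 h. In Balb/c it was 0.59 and 0.62 in mock, 0.20 and -0.13 at 4 h and -0.55 and -1.07 at 18 h. The 3 groups of a strain did not overlap, with mock highest and 18 h lowest.

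At 18 h Il1rn fell by 1.54 ± 0.20 log2 in C57BL6 (limma adjusted p = 0.00603), 2.91-fold, and by 1.41 ± 0.20 in Balb/c (adjusted p = 0.00841), 2.66-fold. The C57BL6 call ended without C57BL6 18 h replicate 2 (adjusted p = 0.0614), and the Balb/c call without Balb/c mock replicate 1 (0.0507) or Balb/c 18 h replicate 2 (0.0511). With slide as a block both held (0.00683 and 0.0123), and the C57BL6 change within slide 3 was -1.54. In Balb/c the changes within replicates 1 and 2 were -1.13 and -1.69. At 4 h it did not pass the test (-0.42 ± 0.20, adjusted p = 0.378, and -0.57 ± 0.20, adjusted p = 0.354). From 4 h to 18 h the change was -1.12 ± 0.20 in C57BL6 (adjusted p = 0.0542) and -0.85 ± 0.20 in Balb/c (adjusted p = 0.141), and with the replicate block both passed (adjusted p = 0.0154 and 0.037). A dimmer Il1rn probe followed the brighter one with r = 0.955 over the 12 arrays, which hold the same 6 groups. With every kept probe tested it gave -1.05 (adjusted p = 0.041) in C57BL6 and -1.40 (adjusted p = 0.0131) in Balb/c at 18 h, with 1 of the 2 Balb/c 18 h arrays above background.

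Il18 was measured by 10 spots per array and stepped down from mock to 4 h to 18 h in both strains without overlap between the groups of a strain. In C57BL6 its level was 1.20 and 1.25 log2 in mock, 0.54 and 0.34 at 4 h and -0.01 and -0.21 at 18 h. In Balb/c it was 0.89 and 0.98 in mock, 0.15 and 0.36 at 4 h and -0.46 and -0.32 at 18 h. Il18 encodes interleukin-18, which induces interferon gamma in lymphocytes.

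At 18 h Il18 fell by 1.33 ± 0.16 log2 in C57BL6 (limma adjusted p = 0.00395), 2.52-fold, and by 1.32 ± 0.16 in Balb/c (adjusted p = 0.00376), 2.50-fold. Removal of any single array of the 12 left both calls in place (adjusted p = 0.00541 to 0.0455 and 0.00563 to 0.0338). They also held with slide as a block (0.0118 and 0.00825), and the C57BL6 change within slide 3 was -1.35. In Balb/c the changes within replicates 1 and 2 were -1.34 and -1.30. At 4 h the fall of 0.79 ± 0.16 in C57BL6 was called (adjusted p = 0.0377). Removal of any single one of the 4 arrays compared ended it (adjusted p = 0.121 to 0.277), as did median scaling (0.0939) and no background filter (0.12). In Balb/c at 4 h the change was -0.68 ± 0.16 (adjusted p = 0.105, with the replicate block 0.0235). From 4 h to 18 h it was -0.54 ± 0.16 and -0.64 ± 0.16 (adjusted p = 0.208 and 0.145), which passed with the replicate block (0.0388 and 0.0307).

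**Figure D2:**
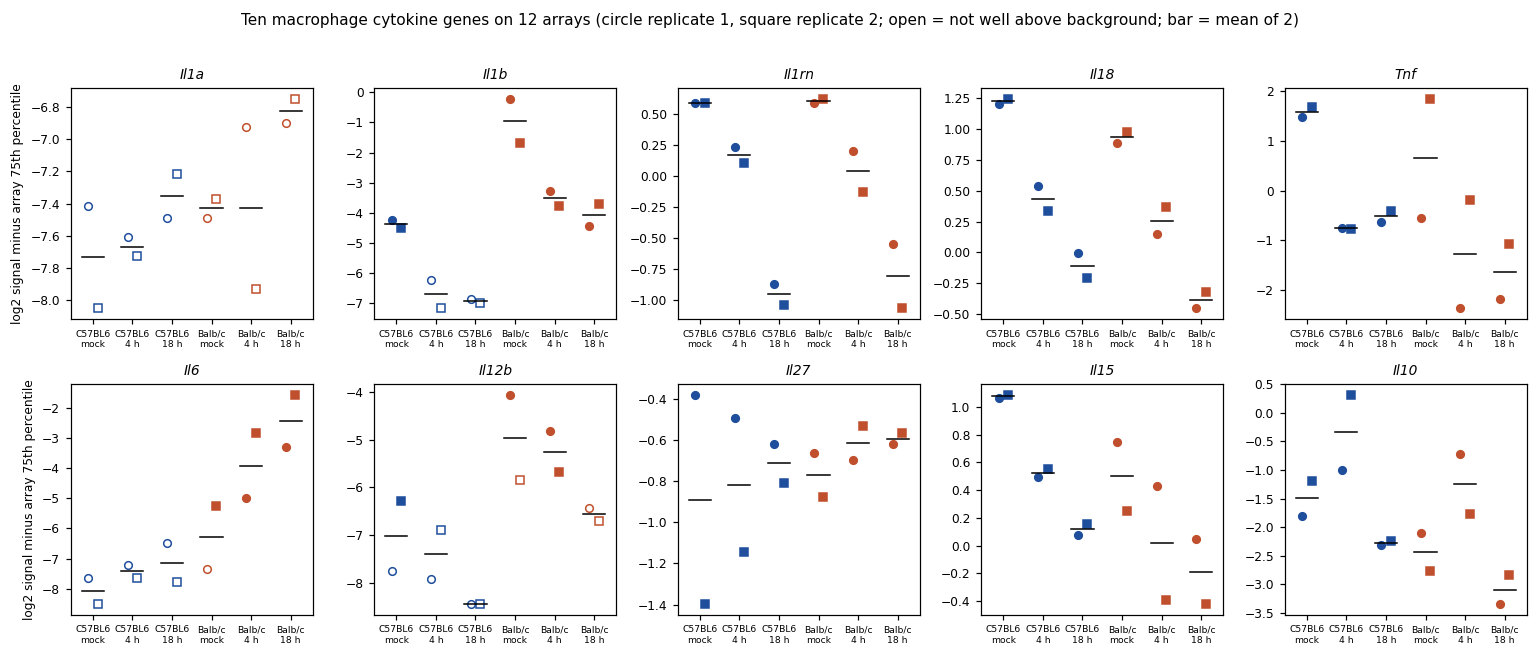
Level of the brightest probe of each of the 10 cytokine genes on the 12 arrays (y axis, log2 signal minus the 75th percentile of the array; each panel has its own scale), by strain and time of IL-4. Circles are replicate 1, squares replicate 2, bars the mean of the 2, and open symbols were not well above background; Il1rn and Il18 step down from mock to 18 h, Il6 lies far higher in Balb/c with IL-4, and Il10 is highest at 4 h in both strains.

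Tnf was high in mock and its spread in Balb/c followed the replicate number. Its level in C57BL6 was 1.48 and 1.70 log2 in mock, -0.75 and -0.76 at 4 h and -0.62 and -0.41 at 18 h. In Balb/c replicate 1 gave -0.55 in mock, -2.37 at 4 h and -2.18 at 18 h, and replicate 2 gave 1.85, -0.19 and -1.08. In C57BL6 both mock arrays lay above all 4 with IL-4, while in Balb/c mock replicate 1 lay below 4 h replicate 2.

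Tnf did not pass the test that takes the 2 arrays as unpaired. Its change was -2.35 ± 0.87 log2 at 4 h (limma adjusted p = 0.233) and -2.10 ± 0.87 at 18 h (0.258) in C57BL6, and -1.93 ± 0.87 (0.52) and -2.28 ± 0.87 (0.26) in Balb/c. With the replicate block all 4 were called (adjusted p = 0.00948, 0.0106, 0.027 and 0.00898, in that order). Within slides the C57BL6 change at 4 h was -2.23 on slide 2 and -2.46 on slide 3. The Balb/c changes were -1.82 at 4 h and -1.63 at 18 h within replicate 1 and -2.04 and -2.93 within replicate 2. On only the arrays compared, the C57BL6 changes were called as well.

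Il6 in Balb/c had a higher level than mock at both times of IL-4, and in C57BL6 it was above background on no array. Its signal there was 7.52 and 36.4 scanner units in mock, 39.6 and 224 at 4 h and 121 and 474 at 18 h. In C57BL6 it was 7.04 and 4.61 in mock, 9.88 and 7.39 at 4 h and 14.6 and 6.89 at 18 h, not well above background on any of the 6 arrays. The lowest signal called well above background ran from 12.0 to 41.8 scanner units over the arrays, and the 10 Il6 spots of Balb/c 18 h replicate 2 lay between 443 and 491. At each Balb/c replicate number the order was mock, 4 h, 18 h, and replicate 2 stood above replicate 1 throughout.

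In Balb/c the Il6 change was 2.39 ± 0.97 log2 at 4 h (limma adjusted p = 0.439) and 3.87 ± 0.97 at 18 h (adjusted p = 0.0796), 14.6-fold, and neither passed the test. Only 1 of the 2 mock arrays was above background, so the sizes rest partly on a signal at the limit. Over single arrays left out the 18 h change ran from 2.81 to 4.92. With the replicate block both were called (adjusted p = 0.00856 and 8.55e-04), as was 18 h against 4 h (1.48 ± 0.97, adjusted p = 0.685, with the block 0.0252). With slide as a block the 18 h change was 2.89 (adjusted p = 0.127). Within replicates 1 and 2 it was 4.05 and 3.68. The C57BL6 signal gives no fold, since both sides were below background, although the replicate block counted it as a call at 18 h (adjusted p = 0.0385).

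Since Il6 was below background on all 6 C57BL6 arrays, the strain difference of its IL-4 change has no measured size on the C57BL6 side. For the 9 tested cytokine genes limma called 0 strain differences at either time, with 0 at an unadjusted p below 0.05. For Il6, and for Il1b and Il12b where they were dim, this count says nothing of whether the strains differed. Over all genes 0.0% were called, with 446 and 973 genes at an unadjusted p below 0.05.

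**Figure D3:**
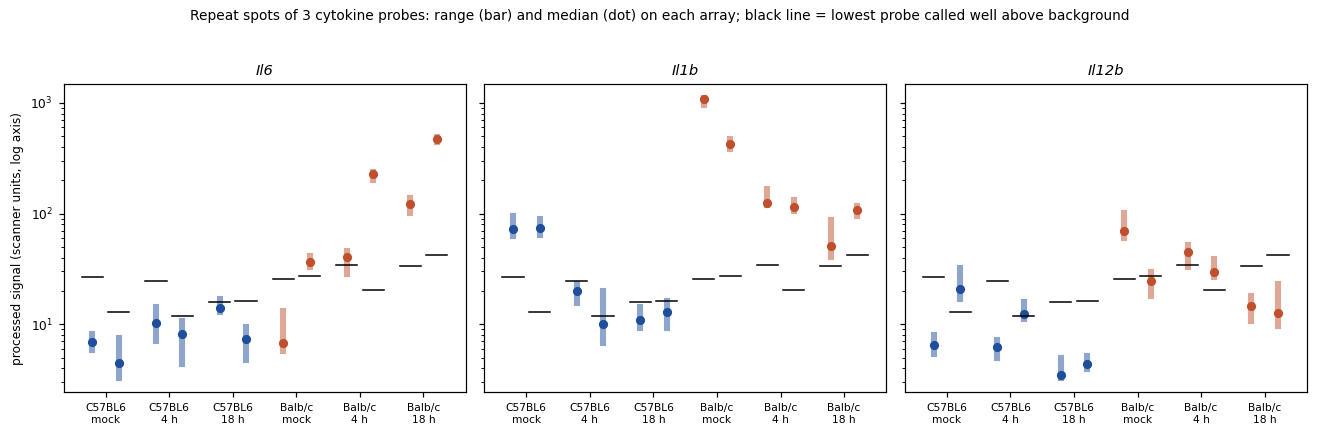
Processed signal of the repeat spots of the Il6, Il1b and Il12b probes on each of the 12 arrays (y axis, scanner units on a log axis), with the median as a dot, the range of the spots as a bar and the lowest probe called well above background on that array as a black line. The Il6 median lies below that line on all C57BL6 arrays and climbs above it in Balb/c with IL-4. The Il1b median lies below it in C57BL6 with IL-4. The Il12b median lies above it on some arrays and well below it on others.

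Il12b, the subunit shared by interleukin-12 and interleukin-23, was not well above background on most arrays. Its signal in Balb/c was 73.3 and 23.9 scanner units in mock, 44.2 and 31.1 at 4 h and 13.9 and 13.5 at 18 h, and in C57BL6 it was 6.55 and 21.7, 6.09 and 12.6, and 3.81 and 4.46. It was above background on 4 of the 12 arrays, 3 of them Balb/c. At 18 h in Balb/c it was at least 1.11-fold lower than mock, with 1 of 2 mock arrays above background, and did not pass the test (limma adjusted p = 0.316).

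Il27 encodes the subunit that pairs with Ebi3, and none of its changes passed the test. It was -0.38 and -1.40 log2 in C57BL6 mock, -0.49 and -1.15 at 4 h, -0.62 and -0.81 at 18 h, and between -0.88 and -0.53 on the 6 Balb/c arrays. The changes against mock were 0.07, 0.18, 0.15 and 0.18, each ± 0.34, with limma adjusted p from 0.855 to 0.971.

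Il15, whose product sustains NK cells and memory T cells, had a lower mean with IL-4 than in mock on both of its probes. By the brighter probe its level was 1.07 and 1.09 log2 in C57BL6 mock, 0.49 and 0.55 at 4 h and 0.08 and 0.16 at 18 h, 3 groups that did not overlap. In Balb/c it was 0.75 and 0.25 in mock, 0.43 and -0.39 at 4 h and 0.05 and -0.42 at 18 h, where 4 h overlapped with both others.

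The Il15 change at 18 h was -0.96 ± 0.29 in C57BL6 (limma adjusted p = 0.13) and -0.69 ± 0.29 in Balb/c (adjusted p = 0.323), and at 4 h -0.55 ± 0.29 (0.433) and -0.48 ± 0.29 (0.727). With the replicate block 3 of these 4 were called (adjusted p = 0.00595, 0.0172 and 0.0303), Balb/c at 4 h being the exception (0.0684). The dimmer probe gave smaller changes at 18 h, -0.30 in C57BL6 and -0.60 in Balb/c (adjusted p = 0.508 and 0.186 with every kept probe tested). The 2 probes correlated at r = 0.101 over the 12 arrays, and in mock they set the strains in opposite order. Balb/c over C57BL6 was -0.58 by the brighter probe and 0.68 by the dimmer one, and neither passed the test (adjusted p = 0.316 and 0.0983).

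**Figure D4:**
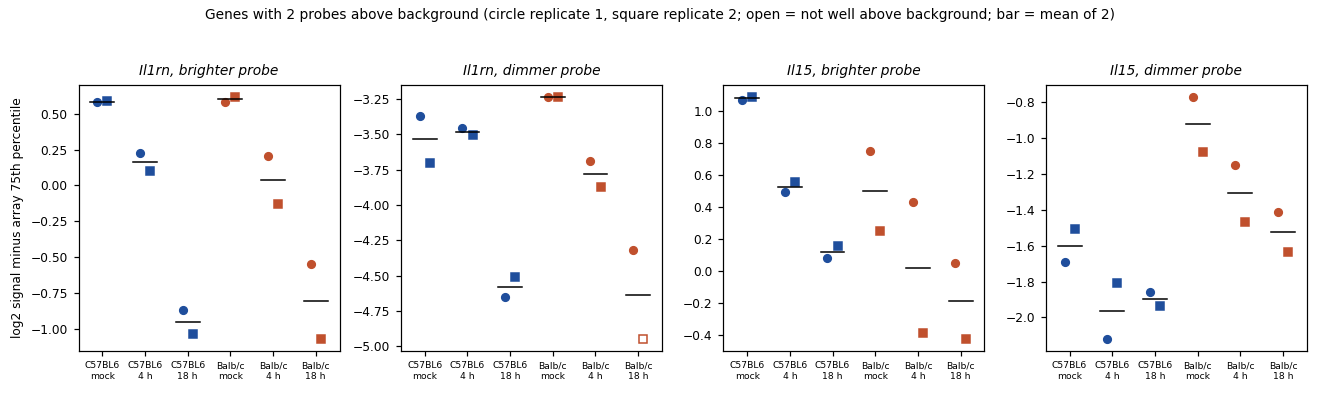
Levels of the brighter and dimmer probes of Il1rn and Il15 on the 12 arrays (y axis, log2 signal minus the 75th percentile of the array; each panel has its own scale). Circles are replicate 1, squares replicate 2, bars the mean, and open symbols were not well above background; the Il1rn probes run in parallel, whereas the Il15 probes put the 2 strains in opposite order.

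Il10, the inhibitory cytokine of the set, was highest at 4 h and lowest at 18 h in both strains. Its level in C57BL6 was -1.80 and -1.19 log2 in mock, -0.995 and 0.319 at 4 h and -2.31 and -2.25 at 18 h. In Balb/c it was -2.10 and -2.77 in mock, -0.72 and -1.76 at 4 h and -3.35 and -2.84 at 18 h. The 3 groups of each strain did not overlap, yet the SD of the 2 arrays reached 0.93 log2 at 4 h in C57BL6 and 0.74 at 4 h in Balb/c.

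Against mock, Il10 was 1.16 ± 0.51 log2 at 4 h and -0.79 ± 0.51 at 18 h in C57BL6 (limma adjusted p = 0.318 and 0.503), and 1.19 ± 0.51 and -0.66 ± 0.51 in Balb/c (0.481 and 0.627). The widest contrast was 18 h against 4 h, at -1.94 ± 0.51 in C57BL6 (adjusted p = 0.158) and -1.85 ± 0.51 in Balb/c (0.196), which missed the threshold with the replicate block too (0.0599 and 0.0697). None of these Il10 changes passed the test. Between 18 h and 4 h limma called 0 of the 9 cytokine genes in either strain, where 1.01% of all genes were called in C57BL6 and 0.901% in Balb/c. At an unadjusted p below 0.05 there were 3 of the 9 in each strain. Of all 18427 genes 2028 in C57BL6 and 1993 in Balb/c were also below it.

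In mock the strains differed in 1 of the 9 tested cytokine genes, where 5.25% of all genes were called. Il1b was higher in Balb/c by 3.42 ± 0.51 log2 (limma adjusted p = 0.00726), 10.7-fold. Without Balb/c mock replicate 1 the difference was 2.69, and without Balb/c mock replicate 2 it was 4.16. The call ended without C57BL6 mock replicate 2 (adjusted p = 0.0524) and with slide as a block (3.24, adjusted p = 0.0996), and no slide held mock arrays of both strains. Summed neutrophil markers, among which S100a9 weighs most, were lower in Balb/c mock, as given above. Their part in this difference was not tested. Balb/c minus C57BL6 was -0.94 ± 0.51 for Il10 (adjusted p = 0.347), -0.29 ± 0.16 for Il18 (0.349) and -0.94 ± 0.87 for Tnf (0.591), none of them called.

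Among the genes that surround these cytokines, Il1r1, Il6st and Il27ra were called higher with IL-4 in at least 1 comparison in each strain, whereas Il6ra was called in none and Il1r2 with the replicate block alone, at 18 h in C57BL6 (adjusted p = 0.0319). Of 19 receptors, decoys and binding proteins, all tested, limma called 2 higher and 0 lower at 4 h and 3 and 0 at 18 h in C57BL6, and 1 and 0 and then 2 and 1 in Balb/c. Il1r1, the signalling receptor of interleukin-1, rose by 3.01 ± 0.53 at 4 h (adjusted p = 0.023) and 3.16 ± 0.53 at 18 h (adjusted p = 0.0151) in C57BL6 and by 3.56 ± 0.53 at 18 h in Balb/c (adjusted p = 0.0092). Il6st, the signal-transducing chain for interleukin-6 and interleukin-27, rose by 1.41 ± 0.18 and 1.46 ± 0.18 in C57BL6 (adjusted p = 0.0063 and 0.0042) and by 0.99 ± 0.18 at 4 h in Balb/c (adjusted p = 0.0397). Il27ra rose at 18 h by 1.90 ± 0.28 and 1.93 ± 0.28 (adjusted p = 0.0086 and 0.008). Il15ra, which presents interleukin-15, fell by 0.99 ± 0.17 at 18 h in Balb/c (adjusted p = 0.0194). The median of the list was between -0.01 and 0.27. With the block 4 and 0, 5 and 2, 4 and 1, and 4 and 3 were called higher and lower, in the order above. Of all genes 3.22%, 4.28%, 1.43% and 3.73% were called, and with the block 16.6%, 17.4%, 7.29% and 15.1%.

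Of 13 genes of cytokine processing and release, all tested, 0 were called higher with IL-4 at either time. Casp4, an inflammatory caspase, fell by 1.12 ± 0.21 at 18 h in C57BL6 (limma adjusted p = 0.0266). In Balb/c at 18 h Nlrc4, an inflammasome sensor, fell by 1.25 ± 0.23 (adjusted p = 0.0221) and Adam17, the protease that sheds TNF, by 1.02 ± 0.16 (adjusted p = 0.013). Casp1, which cleaves interleukin-1 beta and interleukin-18, was not called in any of the 4 comparisons. Between the strains in mock 1 of the 13 was called higher in Balb/c and 1 lower, where 5.25% of all genes were called. The higher was Aim2, a DNA sensor, not above background in C57BL6 mock and at least 4.75-fold higher in Balb/c mock (adjusted p = 0.0012). Of the 12 partner subunits and related ligands only 5 were tested, and limma called 0 of them in each of the 4 comparisons. Ebi3 was at -0.65 ± 0.35 and -1.27 ± 0.35 at 4 h and 18 h in C57BL6 (adjusted p = 0.445 and 0.0986, with the block 0.0174 and 0.0023) and at -0.37 ± 0.35 and -1.05 ± 0.35 in Balb/c (adjusted p = 0.854 and 0.198, with the block 0.111 and 0.00403). Calls with the replicate block are given as higher and lower, in C57BL6 at 4 h and 18 h and then in Balb/c. They were 1 and 3, 1 and 3, 0 and 1, and 1 and 5 of the processing genes. For the partner genes they were 0 and 1, 1 and 2, 0 and 0, and 0 and 3. The share of all genes called was 3.22%, 4.28%, 1.43% and 3.73%, and with the block 16.6%, 17.4%, 7.29% and 15.1%.

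Of 29 regulators of transcription and mRNA decay, all tested, limma called 2 higher and 5 lower at 4 h and 2 and 6 at 18 h in C57BL6, and 1 and 2 and then 2 and 3 in Balb/c. Nfkbiz, an IkB protein with a part in the induction of Il6 and Il12b, fell by 3.70 ± 0.39 and 2.91 ± 0.39 in C57BL6 (adjusted p = 0.0039 and 0.0061). In Balb/c it fell by 3.13 ± 0.39 and 3.08 ± 0.39 (adjusted p = 0.0129 and 0.0048), where the Il6 level was higher with IL-4, without a call. A link between Nfkbiz and Il6 was not tested. Zc3h12a, a ribonuclease that cuts cytokine mRNAs, rose by 1.52 ± 0.18 and 0.94 ± 0.18 in C57BL6 (adjusted p = 0.0057 and 0.0294) and by 1.18 ± 0.18 and 0.91 ± 0.18 in Balb/c (0.026 and 0.0351). Zfp36, which marks Tnf mRNA for decay, rose by 0.82 ± 0.15 and 0.75 ± 0.15 in C57BL6 (adjusted p = 0.0291 and 0.0337) and by 0.73 ± 0.15 at 18 h in Balb/c (0.041). Nfkbia, Nfkbie and Maf were among those called lower at 18 h in C57BL6. With the replicate block 3 and 9, 3 and 12, 1 and 6, and 2 and 7 regulators were called higher and lower, in the same order. All genes were called at 3.22%, 4.28%, 1.43% and 3.73%, and with the block at 16.6%, 17.4%, 7.29% and 15.1%.

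**Figure D5:**
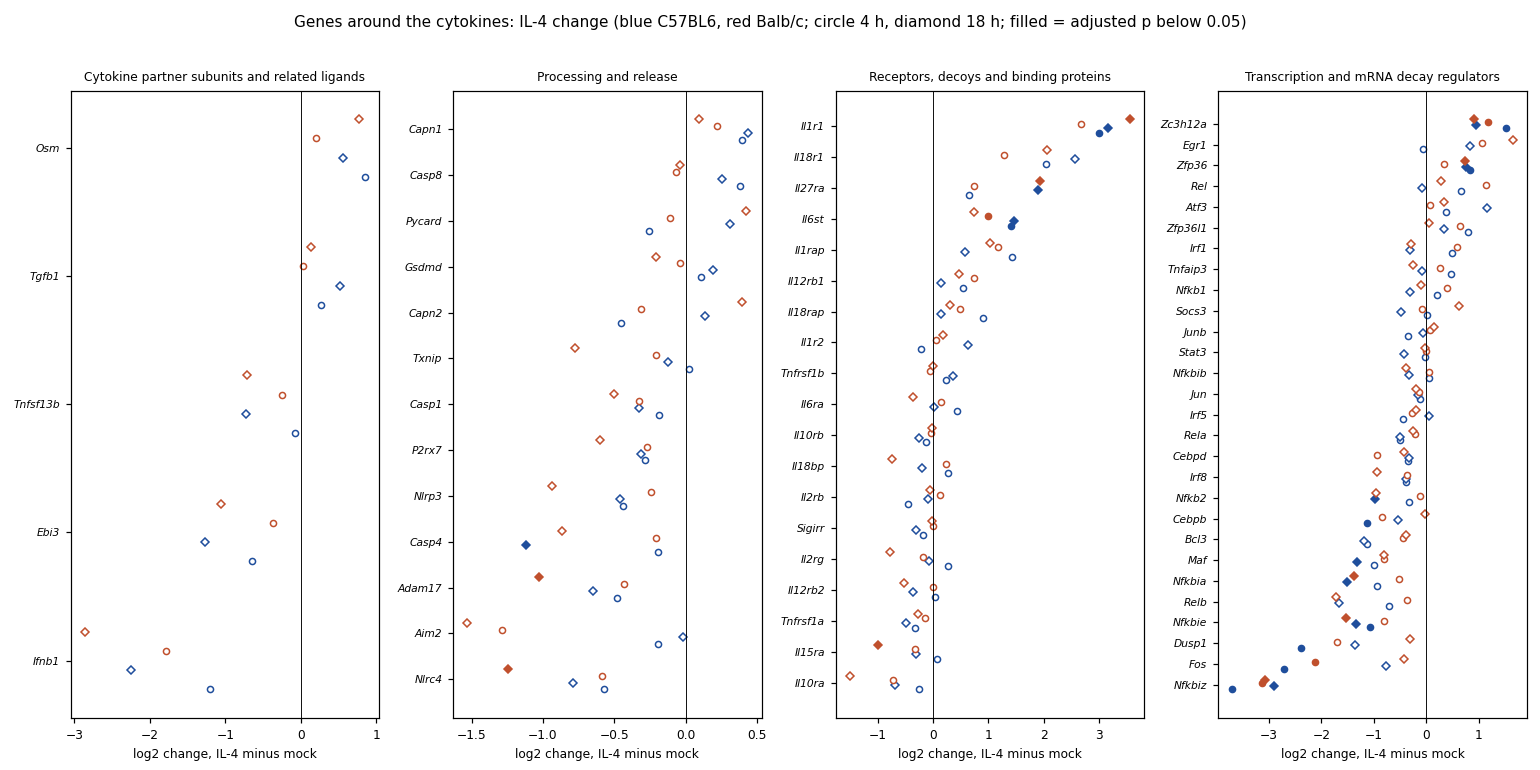
Fitted log2 change after IL-4 against mock (x axis) of the tested genes of 4 lists around the cytokines, less 1 regulator that is not shown, with C57BL6 in blue, Balb/c in red, circles for 4 h and diamonds for 18 h, and filled symbols for calls at an adjusted p below 0.05. Receptor calls lie to the right apart from Il15ra, and regulator calls include Nfkbiz far to the left and Zc3h12a and Zfp36 to the right.

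Over the 12 arrays, which share 6 groups of 2, Il18 and Il1rn, both above background throughout, correlated with r = 0.894. Among 14156 genes the most similar to Il1rn was Zmynd15 (r = 0.974), and to Il10 Zbtb3 (r = 0.938), with Nfkb1 close behind (r = 0.927). These are descriptions over arrays that share their groups.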

How the data were processed

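Per the submitters' processing notes, Agilent mouse arrays with a single dye (Cy3) were read with version 9.5.1.1 of Feature Extraction. The deposited scanner files hold background-subtracted processed signal as intensity in linear units, per the file headers. The authors also deposited a table of linear ratios, whose values show the mean of the 2 C57BL6 mock arrays as denominator (within 0.001 for 99.98% of probes); its scaling method is not given in the sources used here, and it served as an alternative. Each column median of that table lay between 0.936 and 1.132.

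Control and outlier spots were left out, intensity was put on log2, each array's 75th percentile was subtracted and spots of a probe were averaged. A probe was kept when a share of 0.5 or more of its spots was well above background on each of the 2 arrays of any group (27373 probes), and the kept probe with the highest mean stood for its gene. Names came through RefSeq (GRCm38.p6) by accession, current or older symbol for 17629, 3978 and 1871 probes, and 3895 kept the file's name. Group means were fitted on all 12 arrays with limma 3.58.1 in R 4.3.3; figures used matplotlib 3.10.9. The fit was also run on simulated arrays with independent noise and large planted changes. That run does not bear on replicate number, slide or smaller changes.

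Same-numbered arrays of a strain deviated together (r = 0.155 to 0.653 in 6 of 6 pairs), against -0.312 to 0.142 between strains. The highest r were 0.653 for Balb/c 4 h and 18 h and 0.622 for C57BL6 mock and 4 h. In these groups the replicates lay on different slides, so replicate and slide cannot be told apart. The labels state no pairing, so the block is an alternative that takes the numbers as pairs. Every cytokine gene is named whatever its outcome, other listed genes up to 6 per list and comparison, and 3 correlated genes per member at most. The genes and lists were chosen with earlier results of these data known. Results of some genes are not reported here.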

Additional observations from a re-analysis of the deposited data

How the results depend on the processing

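With 2 arrays per group, adjusted p-values depended most on how the spread was estimated. The normexp setting leaves out spots far below their local background, a step chosen after seeing the data. All genes called in the 4 h and 18 h C57BL6, the 4 h and 18 h Balb/c, the C57BL6 and Balb/c 18 h against 4 h, and the strain in mock comparisons were 594, 789, 264, 687, 186, 166 and 967. They were 305, 463, 120, 437, 54, 47 and 590 without the background filter and 69, 322, 0, 17, 0, 0 and 249 on only the arrays compared. With the replicate block they were 3056, 3199, 1343, 2788, 1257 and 1098, in the same order without the last. The block was not run for strain in mock, because the numbers were taken as pairs within a strain only. Median scaling gave 374 for C57BL6 at 4 h and 104 and 91 for 18 h against 4 h. For strain in mock slide as a block gave 504 and every kept probe 1541. Leaving out 1 array gave 76 to 658, 207 to 849, 67 to 194, 313 to 723, 0 to 177, 0 to 125 and 449 to 1098. The strain differences of the IL-4 effect, with 0 genes called, had 2 at 4 h and 9 at 18 h with quantile scaling, 1 and 1 with the authors' deposited ratios, 2 at 18 h with median scaling and with slide as a block, and 0 to 4 at either time with 1 array left out.

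Of the cytokine genes, C57BL6 at 4 h had 2 called with quantile scaling, every kept probe or an intensity trend, 0 without the filter, and 4 with the replicate block. C57BL6 at 18 h had 6 with the block, 1 of them Il6, which was below background there. Balb/c at 4 h had 1 with normexp, quantile or median scaling or the trend, and 4 with the block. Balb/c at 18 h had 6 with the block and 0 on only the arrays compared. For 18 h against 4 h the block gave 2 in C57BL6 and 3 in Balb/c, and normexp, the slide block, the trend and the filter on all 12 arrays each gave 1 in C57BL6. Strain in mock had 0 with the filter on all 12 arrays, the slide block or only the arrays compared. For these comparisons the share of all genes called with quantile scaling, normexp, the trend or that filter is not given here. Under those settings the counts cannot be set against all genes. Leaving out 1 array gave 0 to 1 in C57BL6 and in Balb/c at 4 h, 1 to 3 at 18 h in each strain, 0 to 1 for C57BL6 18 h against 4 h and 0 to 1 for strain in mock. The strain difference in mock turned for Il15 with the mean of its probes (0.0497) and for Tnf with the slide block (0.75) and over single arrays left out (-2.14 to 0.26). The Il27 change turned over single arrays left out, from -0.44 to 0.58 at 4 h and -0.33 to 0.68 at 18 h in C57BL6. The cause was not tested. Signals near or below the detection limit bound what Il1a, Il12b, Il6 in C57BL6 and Il1b in C57BL6 with IL-4 can show.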
